A study of Saccharomyces cerevisiae with 8 samples.

Results

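The transcripts described here are the mRNAs that yeast mitochondria make from their own genome, and the question was how their signal in RNA recovered with Upf1p compares with that in mock selections. Upf1p is an RNA helicase required for nonsense-mediated decay, a pathway of the cytoplasm that removes mRNAs whose translation stops early. The members were all probe sets that the platform annotation assigns to exactly 1 gene, that gene being COX1, COX2, COX3, COB, ATP6, ATP8, OLI1 or VAR1. All 8 genes had such a probe set, and together they had 14 of the 9275 probe sets tested. COX1 had 3 of them, COB, ATP8, OLI1 and VAR1 had 2 each, and COX2, COX3 and ATP6 had 1 each.

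Saccharomyces cerevisiae cells were grown in YEPD, a rich glucose medium, at 30 degrees, and broken under liquid nitrogen. In the Upf1p-TAP group (4 arrays, replicates 1 to 4) the extract came with Upf1p carrying a TAP tag, which binds IgG, and in the mock group (4 arrays, replicates 1 to 4) the same selection on IgG Sepharose was run as a control. The sources used here do not give the strain background, any further alleles or the makeup of the mock strain. Equal amounts of RNA from both kinds of eluate entered the last clean-up, so each signal is a share of the recovered RNA, and a loss of a transcript and a gain of other RNA cannot be told apart.

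Mitochondrial DNA of budding yeast is transcribed inside the organelle by a dedicated RNA polymerase, and its mRNAs are translated there on mitochondrial ribosomes, away from the cytoplasmic ribosomes on which Upf1p acts. The products are core subunits of the respiratory chain and of ATP synthase, plus the ribosomal protein Var1. Growth on glucose holds respiration down in this yeast. The mRNAs carry no long poly(A) tail and end at a conserved short sequence, whereas the array maker's standard labelling protocol, which the labels cite, starts from oligo(dT). How far each of these mRNAs was copied by that route was not tested.

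Array medians lay between 58.2 and 78.1 in deposited signal, a linear intensity. Log2 signals of 2 arrays correlated at a Pearson r of 0.95 to 0.98 among the Upf1p-TAP arrays and of 0.90 to 0.94 between the groups. NAM7, the gene of Upf1p, gave 5.83, 20.1, 12.9 and 17.5 on Upf1p-TAP arrays 1 to 4 and 28.7, 55.3, 76.4 and 41.7 on the mock arrays, a log2 ratio of -1.59 (adjusted p = 0.00178, SE 0.25). How the tag bears on this reading was not tested, so this transcript does not check the labels.

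Mitochondrial mRNAs were lower in the Upf1p-TAP selections. In limma, with the replicate number as a block and p-values adjusted over all probe sets, 9 of the 14 probe sets were lower, 0 were higher and 5 did not pass. Among all probe sets tested, 13.5% were called lower and 17.7% higher at the same adjusted threshold. At an unadjusted p below 0.05, 11 of the 14 were lower and 0 higher. The share of all probe sets at that looser threshold was not taken, so these 11 have no background beside them. Of the 8 genes, 6 had a called probe set, namely COX1, COX3, COB, ATP6, ATP8 and OLI1, while COX2 and VAR1 had none. ATP8 rested on 3957_r_at, a dim probe set whose call was lost under several alternatives. The median log2 ratio over the 14 was -1.08, against 0.004 over all probe sets, with single values from -2.62 to -0.06. All ratios are Upf1p-TAP over mock on the log2(signal + 4.09) scale, which understates the change of dim transcripts. The groups did not overlap for 8 of the 14, with every Upf1p-TAP array below every mock array, a separation found for 11.1% of all probe sets. The count of lower probe sets became 4 with the filter on dim probe sets, which leaves only 4 of the 14. The poly-A spikes, control RNAs added before labelling, were also lower with Upf1p-TAP in pairs 1, 2 and 4, with a median below that of the 3 brightest members in each, and their part in the result was not tested.

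**Figure D1:**
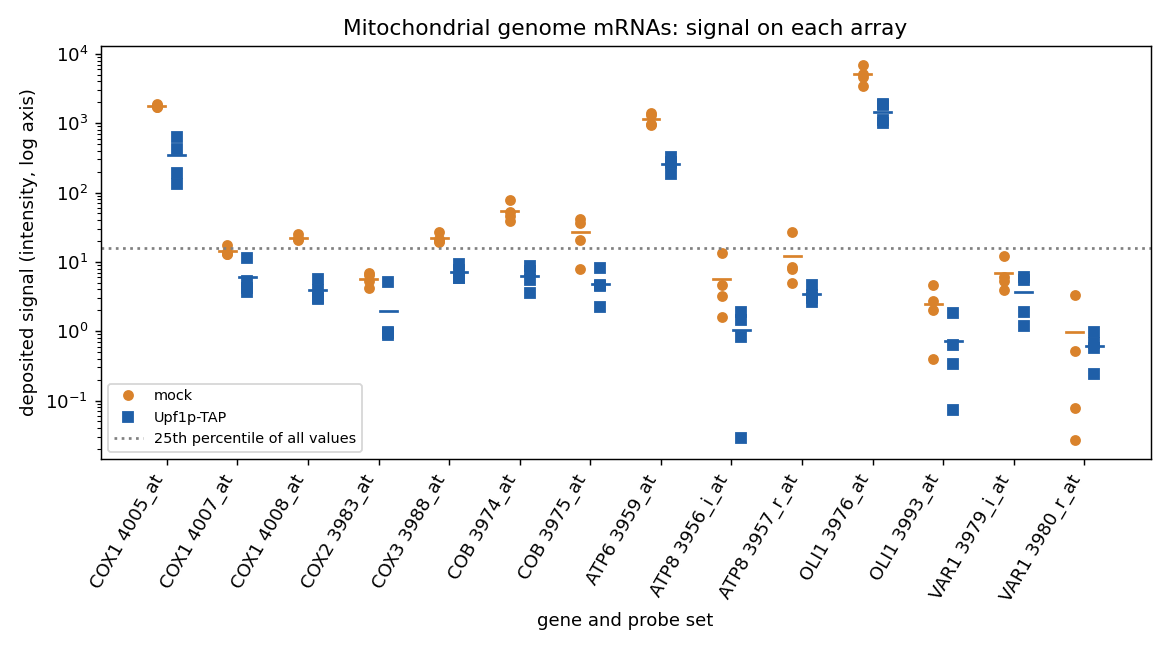
Deposited signal (log axis) of each mitochondrial mRNA probe set on the 4 mock arrays (circles) and the 4 Upf1p-TAP arrays (squares), with group means as short lines. COX1 (4005_at), ATP6 and OLI1 (3976_at) sit far above the dotted line, the 25th percentile over all array values (15.97), in both groups, and all their Upf1p-TAP points lie below their mock points.

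COX1 encodes the largest catalytic subunit of cytochrome c oxidase (complex IV), the last enzyme of the respiratory chain. Its bright probe set, 4005_at, read 422, 132, 634 and 188 on Upf1p-TAP arrays 1 to 4. The mock arrays read 1881, 1814, 1699 and 1721. The mock values lay within a narrow range and the Upf1p-TAP values varied widely, yet the highest of them stayed far below the lowest mock value. Means were 344 ± 231 and 1779 ± 84.2 (SD, n = 4), and the log2 ratio was -2.62 (adjusted p = 5.84e-04, SE 0.34). The ratios of pairs 1 to 4 were -2.15, -3.74, -1.42 and -3.16, so pairs 2 and 4 showed the larger falls.

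The other COX1 probe sets were dim. On 4008_at the Upf1p-TAP arrays read 3.01, 3.97, 2.95 and 5.71 and the mock arrays 22.3, 24.96, 20.4 and 21.3, with no overlap and a tight mock group. The log2 ratio was -1.73 (adjusted p = 5.84e-04, SE 0.22). On 4007_at the values were 11.2, 4.24, 3.72 and 5.30 against 14.03, 17.3, 13.1 and 13.2, which do not overlap but come close in pair 1. Its ratio was -0.90 (adjusted p = 0.0233, SE 0.25), and the call was lost when replicate 2, 3 or 4 was left out (adjusted p up to 0.101, without replicate 2). The 3 COX1 probe sets shared 1 direction in 4 of 4 pairs. The sources used here do not say where each lies along the transcript, which holds introns.

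COX2 and COX3 encode the other mitochondrially made subunits of cytochrome c oxidase. COX3 (3988_at) read 7.57, 9.40, 5.88 and 5.89 with Upf1p-TAP and 19.6, 27.01, 21.1 and 19.7 in the mock. The groups did not overlap, and the log2 ratio was -1.21 (adjusted p = 0.00299, SE 0.21), with -1.34 to -1.02 over the pairs, the narrowest range of any member. COX2 (3983_at) read 5.18, 0.931, 0.880 and 0.959 against 4.26, 6.88, 5.30 and 6.50. Arrays 2 to 4 of Upf1p-TAP were well under the mock and array 1 lay inside the mock range. Its ratio of -0.74 (SE 0.27) did not pass (adjusted p = 0.0663). It passed without replicate 1 (-1.04, adjusted p = 0.0212), without the block (-0.74, adjusted p = 0.0458) and after median centring (-0.88, adjusted p = 0.0409). All COX2 values stood below 15.97, the 25th percentile over all array values and here the lower signal bound, so a change is hard to see there.

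COB encodes cytochrome b, the mitochondrially made subunit of complex III, which passes electrons to cytochrome c. On 3974_at the Upf1p-TAP arrays read 8.59, 7.33, 5.48 and 3.56 and the mock arrays 51.9, 77.8, 39.2 and 45.2. All Upf1p-TAP values were near the offset, and the lowest mock value was several times the highest of them. The log2 ratio was -2.46 (adjusted p = 1.10e-04, SE 0.23) and ranged from -2.84 to -2.14 over the pairs. Its size depended on the offset, at -3.13 without one and -1.62 with the higher offset of 15.97, and its call did not. On 3975_at the values were 8.07, 4.61, 4.44 and 2.24 against 36.6, 40.97, 7.90 and 20.7. Mock array 3 lay just below the highest Upf1p-TAP array, so the groups overlapped by that array, and the ratio was -1.64 (adjusted p = 0.00404, SE 0.31).

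ATP6, ATP8 and OLI1 encode the mitochondrially made subunits of ATP synthase: Atp6 forms the proton channel, Atp8 is a small membrane subunit beside it, and Oli1 (subunit c) builds the rotating ring. ATP6 (3959_at) read 272, 263, 326 and 186 with Upf1p-TAP and 938, 1397, 977 and 1309 in the mock, 2 well separated groups. Means were 262 ± 57.4 and 1155 ± 232 (SD, n = 4), and the log2 ratio was -2.13 (adjusted p = 2.40e-04, SE 0.23). In pairs 1 to 4 it was -1.77, -2.39, -1.57 and -2.79, again larger in pairs 2 and 4.

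OLI1 had the brightest member probe set. On 3976_at the Upf1p-TAP arrays read 1913, 1855, 1096 and 1001 and the mock arrays 6980.1, 4699, 3454 and 5085, which do not overlap although both groups vary. Means were 1466 ± 485 and 5054 ± 1460.4 (SD, n = 4), and the log2 ratio was -1.80 (adjusted p = 1.80e-04, SE 0.19). Its ratios in pairs 1 to 4, -1.86, -1.34, -1.65 and -2.34, put pair 2 as the smallest fall, the pair with the largest fall for COX1. The second OLI1 probe set, 3993_at, read 0.340, 1.83, 0.630 and 0.0737 against 2.75, 2.02, 0.393 and 4.60, hardly any signal in either group. Its ratio was -0.41 (SE 0.26, adjusted p = 0.264), so it gives no reading on a transcript that its partner shows to be abundant.

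ATP8 lies between COX1 and ATP6 in the RefSeq gene table (R64), and in this yeast these genes are known to be transcribed together. Both its probe sets have names ending in _i_at or _r_at, which the array maker gives where a full set of unique probes could not be chosen, and both were dim. On 3957_r_at the Upf1p-TAP arrays read 3.05, 3.31, 4.57 and 2.61 and the mock arrays 5.01, 27.05, 8.38 and 7.90. The groups were just apart, and mock array 2 was far above the rest. The ratio was -0.95 (adjusted p = 0.0414, SE 0.31). The call was lost when replicate 2, 3 or 4 was left out (adjusted p up to 0.175 with a ratio of -0.57, without replicate 2), without the block (adjusted p = 0.0546), with the higher offset (-0.48, adjusted p = 0.0547) and after quantile normalization (adjusted p = 0.0694). On 3956_i_at the values were 0.830, 0.0283, 1.46 and 1.87 against 1.60, 13.3, 4.60 and 3.21, which overlap, and the ratio of -0.81 (SE 0.33) did not pass (adjusted p = 0.0889).

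VAR1, the only ribosomal protein gene of this genome, could not be read. On 3979_i_at the Upf1p-TAP arrays gave 5.50, 6.03, 1.18 and 1.92 and the mock arrays 3.94, 6.14, 12.01 and 5.32, and the groups overlapped. On 3980_r_at no array of either group passed 3.28. The log2 ratios were -0.50 (SE 0.32, adjusted p = 0.260) and -0.06 (SE 0.24, adjusted p = 0.870). Both probe sets are of the _i_at or _r_at kind and lay under the lower signal bound on every array, so no statement on VAR1 mRNA can be made.

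**Figure D2:**
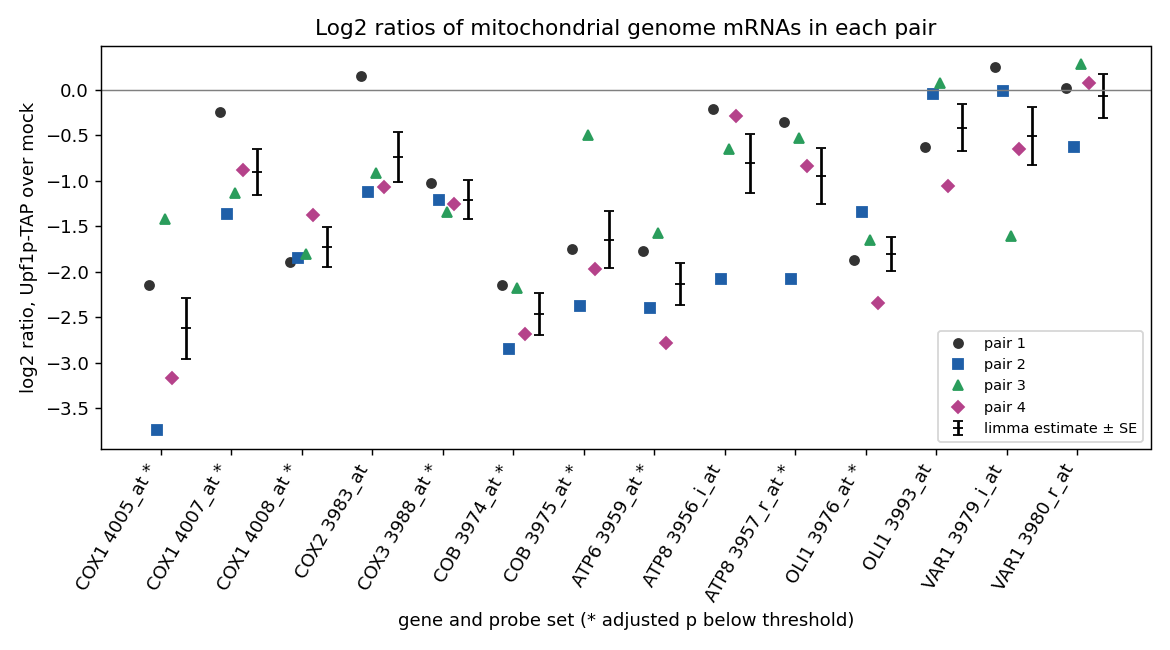
Log2 ratio of Upf1p-TAP over mock in each of the 4 pairs for each mitochondrial mRNA probe set, with the limma estimate and its SE. The ratio was below 0 in 4 of 4 pairs for 10 of the 14 probe sets, and the asterisks mark the 9 called lower. The share of all probe sets below 0 in 4 of 4 pairs was not taken.

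Ordered by ratio, the called probe sets ran from COX1 4005_at (-2.62) through COB 3974_at (-2.46), ATP6 (-2.13), OLI1 3976_at (-1.80), COX1 4008_at (-1.73), COB 3975_at (-1.64), COX3 (-1.21) and ATP8 3957_r_at (-0.95) to COX1 4007_at (-0.90). All neighbours in this order had overlapping ranges over the pairs. With the log2 values of a gene's probe sets averaged, 6 of 8 genes were lower, from COB at -2.05 and ATP6 at -2.13 to ATP8 at -0.88 (adjusted p = 0.0489). COX2 (-0.74, adjusted p = 0.0542) and VAR1 (-0.28, adjusted p = 0.364) did not pass. The share of all genes called lower in that fit was not taken, so the 6 of 8 have no background beside them.

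The share of probe sets called lower rose with brightness, so the members were set beside probe sets of like signal. In the highest quartile of mean signal over the 8 arrays, 3 of 3 members (COX1 4005_at, ATP6 and OLI1 3976_at) were lower, where 20.7% of all probe sets of that quartile were, with a median ratio of -0.07. The members there had a median of -2.13. COB 3974_at was the single member of the second quartile, where 10.3% were lower. The lowest quartile, at a mean signal of up to 17.9, held 10 members, of which 5 were lower, beside 6.73% of its probe sets.

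**Figure D3:**
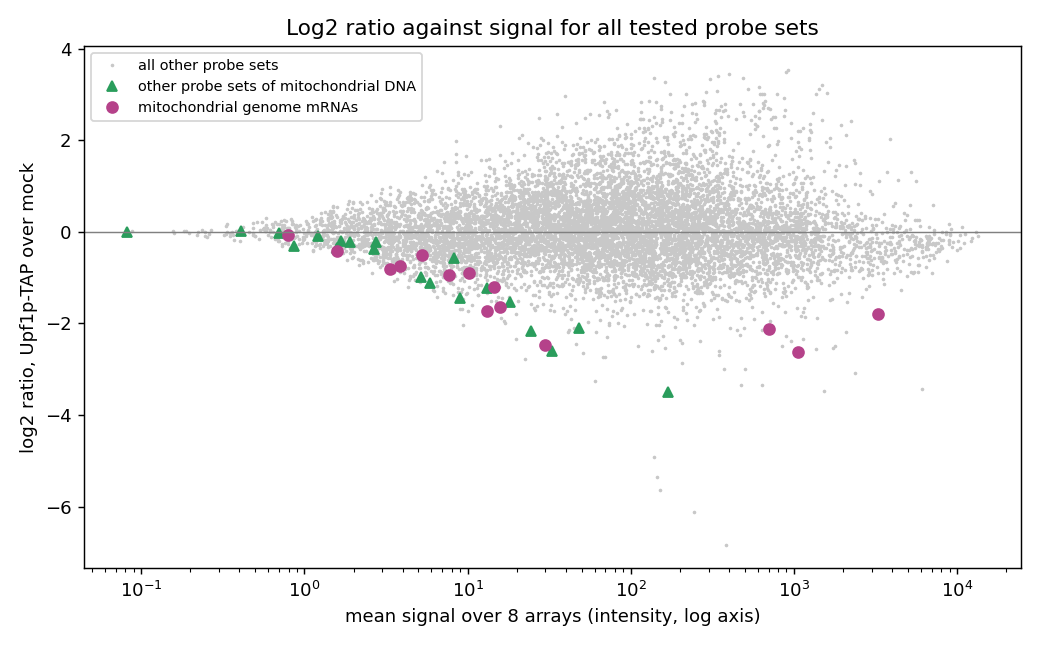
Log2 ratio of Upf1p-TAP over mock against mean signal (log axis) for all 9275 probe sets, with mitochondrial mRNAs (circles) and other probe sets of mitochondrial DNA (triangles) marked. The 3 bright members lie at -1.80 or below and the 6 triangles of probe sets shared by several genes at -1.22 or below, while the other 14 triangles, all dim, lie between -1.44 and 0.01.

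COX1 and COB transcripts carry introns that encode proteins of their own, maturases and DNA endonucleases that help the introns splice or spread. A further 6 probe sets, which the annotation gives to several genes of mitochondrial DNA, were no members. All 6 were lower, with no overlap between the groups and a median ratio of -2.13. Over all probe sets 13.5% were called lower, and 11.1% had every Upf1p-TAP array below every mock array. Whether these 6 read the transcripts of COX1 and COB or other ones was not tested. The lowest was 4001_at, assigned to 3 genes, which read 14.98, 11.2, 53.7 and 20.3 with Upf1p-TAP and 130.3, 406, 467 and 259 in the mock, a log2 ratio of -3.50 (adjusted p = 8.86e-05, SE 0.31). That is a larger fall than on any member probe set. The range over the 6 was -3.50 to -1.22.

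Probe sets of 1 gene outside the 8 were all dim. There were 14, for the intron genes AI1, AI2, AI3, AI4, AI5_ALPHA, AI5_BETA, BI2, BI3 and BI4, for SCEI, the endonuclease gene of the large rRNA intron, and for the open reading frame Q0255. All 14 had group means under the lower signal bound in both groups. In the lowest quartile of mean signal, which held all 14, 6.73% of probe sets were called lower. AI5_ALPHA (-1.44, adjusted p = 0.00288), SCEI (-1.12, adjusted p = 0.0102) and AI1 (-0.995, adjusted p = 0.00976) were lower and 0 were higher. Of the 2319 probe sets of that quartile, 122 were called higher. At an unadjusted p below 0.05 also 0 of the 14 were higher, and the share of all probe sets at that threshold was not taken. AI5_ALPHA read 0.547, 1.81, 6.99 and 3.16 against 8.42, 19.3, 15.3 and 16.6, with no overlap. The other 11 had ratios between -0.58 and 0.01. Mitochondrial rRNAs, tRNAs and RPM1, the RNA of RNase P, had no probe set of their own under the annotation.

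Nuclear genes encode the partner subunits of the same complexes, and their mRNAs are made in the nucleus and translated outside the organelle matrix. Of 32 such genes of complex III, complex IV and ATP synthase, 4 were lower and 6 higher, shares near the 13.5% and 17.7% over all probe sets, with a median ratio of 0.06 (-0.08 after median centring, which moved the median of all probe sets to -0.14 and gave 6 lower and 3 higher). Their ratios ran from -1.06 to 1.17. All of them were bright enough to stand above the lower signal bound in both groups. All but COR1, COX5B and ATP20 lay in the highest quartile of mean signal. In that quartile 20.7% of probe sets were lower, and 465 of 2319 were higher. The difference between the 2 genomes was not tested as such, since the genes are not replicates.

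In complex III, where COB fell, 4 of 9 nuclear genes rose, beside 17.7% of all probe sets, and 0 fell (1 after median centring). CYT1, the cytochrome c1 gene, had 474 ± 44.2 against 209.6 ± 31.5 (SD, n = 4), a ratio of 1.17 (adjusted p = 0.00219, SE 0.19). The small subunit genes QCR9 (0.94, adjusted p = 0.00358) and QCR6 (0.87, adjusted p = 0.00580) rose too, as did RIP1 (0.92, adjusted p = 0.0477), the Rieske iron-sulfur protein gene. RIP1 was no longer called when replicate 2, 3 or 4 was left out (adjusted p up to 0.163, without replicate 3) and in 5 other settings, among them that without the block (adjusted p = 0.183).

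In complex IV, COX8 (0.65, adjusted p = 0.0151) was the 1 called gene of 9, and it was higher. Its call ended without replicate 2 (adjusted p = 0.0528) and after median centring (adjusted p = 0.0598). COX4 (0.37) and COX5A (0.39) did not pass, and the lowest of the 9 was at -0.51, beside -2.62 for COX1 4005_at. The nuclear subunits of ATP synthase gave 4 lower and 1 higher of 14, beside 13.5% and 17.7% of all probe sets, with a median of -0.29 (-0.43 after median centring). In the highest signal quartile, which held all of these genes but ATP20, 20.7% of probe sets were lower. ATP7 (-1.06, adjusted p = 0.00254), a stalk subunit gene, was the lowest, and ATP15 (-0.71, adjusted p = 0.0256), ATP2 (-0.78, adjusted p = 0.0282) and ATP20 (-0.73, adjusted p = 0.0335) were lower as well. ATP4 (0.64, adjusted p = 0.0277), another stalk gene, was higher. Only the call of ATP7 held with each pair left out in turn: those of ATP15 (highest adjusted p = 0.0842, without replicate 1), ATP2 (0.118 as adjusted p, without replicate 4), ATP20 (adjusted p = 0.128, without replicate 2) and ATP4 (adjusted p = 0.0908, without replicate 4) ended. With 1 pair left out this list gave 1 or 2 lower, and ATP4 was not called without the block either (adjusted p = 0.0615). RIP1, ATP2 and ATP20 were named after their values were seen.

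**Figure D4:**
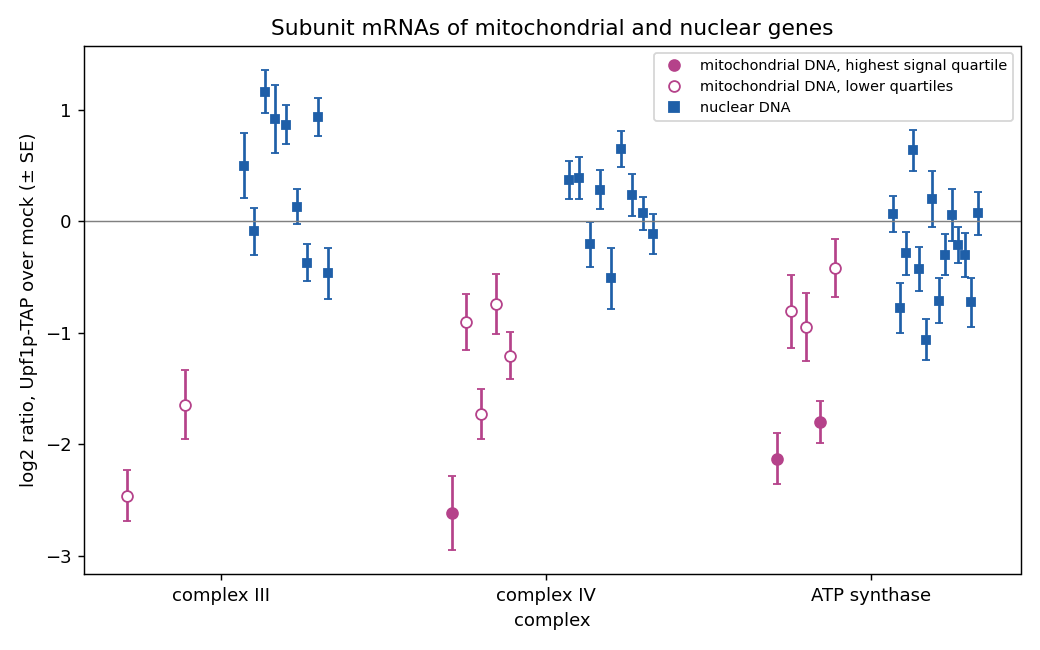
Log2 ratio of Upf1p-TAP over mock (± SE) for probe sets of subunits encoded by mitochondrial DNA (circles, filled in the highest signal quartile) and by nuclear DNA (squares, 1 per gene) in complex III, complex IV and ATP synthase. Filled circles lie at -1.80 or below, and the squares lie between -1.06 and 1.17.

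Each mitochondrial mRNA depends on nuclear-encoded proteins that activate its translation or keep it stable. Of 20 such genes 5 were lower, beside 13.5% of all probe sets, and 4 higher, a share near the 17.7% of all probe sets, with a median of -0.06. AEP1, needed for translation of OLI1 mRNA, rose from 88.4 ± 23.9 to 258 ± 75.5 (SD, n = 4), a ratio of 1.49 (adjusted p = 7.18e-04, SE 0.20). PET54 (1.23, adjusted p = 0.00361), an activator of COX3 translation that also acts in COX1 splicing, was higher, and MSS51 (-1.06, adjusted p = 0.00538), the activator of COX1 translation, was lower. Outside the naming rule, ATP22 (0.87), which acts on ATP6 mRNA, and MTF2 (0.89) were higher. PET111 (-1.02), which acts on COX2 mRNA, NCA2 (-0.88), AEP2 (-0.80), which acts on OLI1 mRNA, and CBP6 (-0.67), which acts on COB mRNA, were lower. The calls of AEP1, PET54, MSS51 and PET111 held with each pair left out. Those of ATP22, MTF2, NCA2, AEP2 and CBP6 ended in at least 1 such fit (highest adjusted p = 0.0903, 0.0782, 0.0598, 0.117 and 0.152, without replicate 2 for AEP2 and without replicate 4 for the others). With 1 pair left out the list gave 3 or 4 lower and 2 to 4 higher, the fewest higher without replicate 4. Without the block it gave 3 lower and 3 higher, as NCA2 (adjusted p = 0.0795), CBP6 (adjusted p = 0.0733) and ATP22 (adjusted p = 0.0538) were then not called.

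For OLI1 mRNA the activator genes went both ways, AEP1 higher and AEP2 lower. Among 6 genes for splicing of mitochondrial introns, 0 were lower and 2 higher (17.7% of all probe sets were), PET54 again and MSS18 (0.87, adjusted p = 0.00877, and 0.0508 as adjusted p without replicate 4), which acts on a COX1 intron. MRS1 (0.46) did not pass. At an unadjusted p below 0.05, 0 of the 6 splicing genes were lower. The share of all probe sets at that threshold was not taken, and 13.5% were called lower at the adjusted one.

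Among 7 genes for transcription, RNA turnover and DNA maintenance in the organelle, 1 was lower, a share near the 13.5% of all probe sets. None was higher, beside 17.7% of all probe sets, and the median was -0.50. At an unadjusted p below 0.05 also 0 were higher, and the share of all probe sets at that threshold was not taken. MTF1, the specificity factor of mitochondrial RNA polymerase, had 52.3 ± 10.5 against 147 ± 35.4 (SD, n = 4), a ratio of -1.41 (adjusted p = 0.00114, SE 0.21). DSS1 (-0.65, adjusted p = 0.0549), the exonuclease of the RNA degrading complex, and RPO41 (-0.65, adjusted p = 0.103), the polymerase itself, did not pass. RPO41 passed without replicate 2 (-0.98, adjusted p = 0.0278), and both passed after median centring (adjusted p = 0.0252 for DSS1 and 0.0430 for RPO41). DSS1 also passed without the block (adjusted p = 0.0437), with the higher offset (adjusted p = 0.0443) and without the intensity trend (adjusted p = 0.0428). The list thus gave 3 lower after median centring and 2 in each of the settings with the higher offset, without the block, without the trend and without replicate 2.

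Control probe sets moved with the groups too. Poly-A spikes, foreign RNAs added before labelling, had median log2 ratios of -2.004, -2.92, 0.04 and -3.98 in pairs 1 to 4. In pair 3 their median signal was 0.966 with Upf1p-TAP and 1.27 in the mock, which gives no reading there. Hybridization spikes, added after labelling, had -0.59, -0.76, -0.65 and -0.81. Probe sets for cytoplasmic 18S rRNA had medians of 0.16, -3.01, -0.001 and -0.77, and those for 25S rRNA -0.60, -1.48, -0.40 and -0.16. The median of the 3 bright members was -1.86, -2.39, -1.57 and -2.79 in pairs 1 to 4. It lay above the median of the poly-A spikes in pairs 1, 2 and 4, the pairs in which those spikes could be read, although COX1 4005_at alone lay below it in pairs 1 and 2. It lay below the medians of the hybridization spikes and of 25S rRNA in 4 of 4 pairs, and below that of 18S rRNA in pairs 1, 3 and 4 but not in pair 2. The rRNA probe sets were dim in some pairs, which limits that comparison. Median 25S signals were 9.37 with Upf1p-TAP and 20.4 in the mock in pair 2, and 20.3 and 28.2 in pair 3. The median 18S signal in pair 2 was 25.9 with Upf1p-TAP and 168 in the mock. The part of the spike and rRNA differences in the result was not tested.

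**Figure D5:**
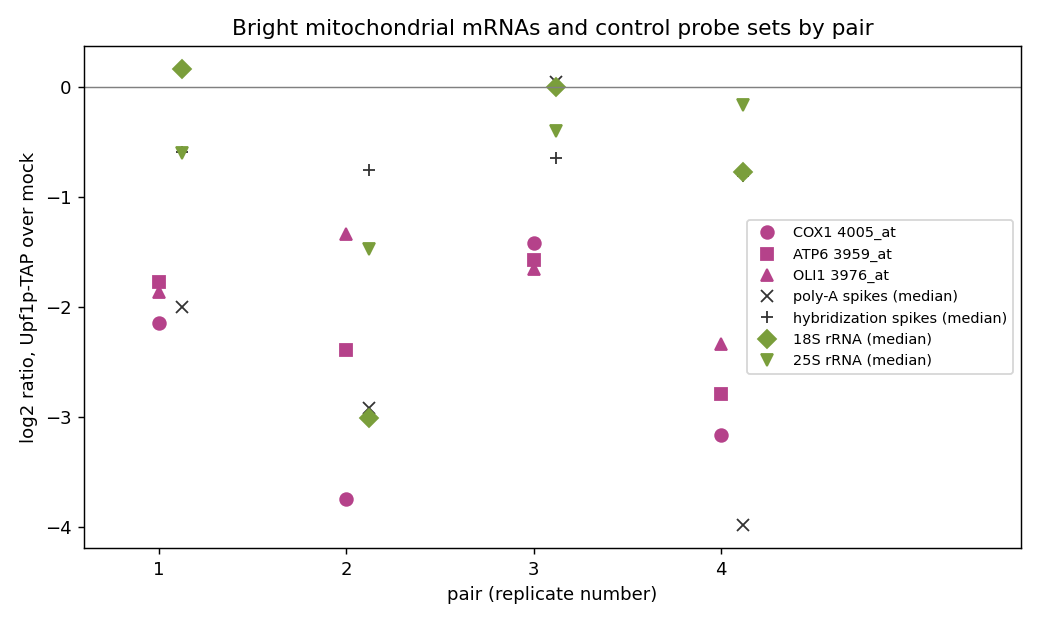
Log2 ratio of Upf1p-TAP over mock in each pair for the 3 bright mitochondrial mRNA probe sets and the median over each kind of control probe set. The bright mRNAs lie between -3.74 and -1.34 in all 4 pairs, and the hybridization spikes between -0.81 and -0.59.

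The profile of the 3 bright members over the 8 arrays was compared with that of 4004 probe sets of single nuclear genes at or above the median signal. The closest by Pearson correlation over the 8 arrays, which share the group difference, were PAR32 (6647_at, r = 0.988), DLD2 (6642_at, r = 0.987), TCP1 (6269_at, r = 0.97), MRPL39 (9660_at, r = 0.96), BOL3 (11362_at, r = 0.96), MRPL10 (9155_at, r = 0.96), ERG10 (7770_at, r = 0.96) and RPS28A (8368_i_at, r = 0.96). Their ratios, which the choice by likeness over both groups makes negative, ran from -1.87 (BOL3, an iron-sulfur cluster assembly gene) to -0.71 (ERG10, the acetoacetyl-CoA thiolase gene). MRPL39 and MRPL10 encode proteins of the large mitochondrial ribosomal subunit and had ratios of -1.05 and -0.92. DLD2, a D-2-hydroxyglutarate dehydrogenase gene, had -1.08. PAR32, TCP1 and RPS28A had -0.87, -0.84 and -0.98. Whether the 8 share a function was not tested.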

How the data were processed

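RNA from 4 Upf1p-TAP and 4 mock selections was measured on 1-colour Affymetrix Yeast Genome S98 arrays. The authors deposited 1 table of intensity values on a linear scale, made with GCOS per the submitters' processing notes, with no version or setting given. It had been scaled before deposit, since the mean of every array without 2% at each end was between 250.2 and 250.3. Detection calls and probe positions were not used here. Precision is limited by the number of arrays.

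The test left out 60 control probe sets and kept 9275. The platform annotation gave 6504 of these 1 gene, and symbols were updated through the RefSeq table of assembly R64. No genome of the array's build was used, so no coordinates are given. limma 3.58.1 in R 4.3.3 fitted log2(intensity + 4.09) (the added value is the 10th percentile over all arrays) with group and pair as terms and an intensity trend in eBayes. P-values are two-sided, Benjamini-Hochberg adjusted over all 9275, called below 0.05, and SE is the moderated standard error. The fit was tested on simulated data.

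Arrays of 1 replicate number form a pair, as the series' design text describes pairs of selections. Deviations from the group means correlated at r = 0.19 to 0.56 between arrays of the same number and -0.55 to 0.35 between others. Whether cultures were separate is not stated beyond that, so the p-values rest on the spread between these samples only. Named were all members, other genes of mitochondrial DNA, up to 3 genes of the smallest p in each list, each by its brightest probe set, and the 8 closest profiles. Members and lists were chosen with earlier results of these data known. Alternatives changed the offset, scaling, filter, block, trend and the pairs used.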

Additional observations from a re-analysis of the deposited data

Results flagged for a closer look

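In 3 of 28 groups of 4 arrays, 1 array stood far from the others by Dixon's test, which chance gives in about 1 group in 20. Upf1p-TAP array 1 read 5.18 for COX2, against 0.880 to 0.959 on the other Upf1p-TAP arrays. Mock array 2 read 27.05 for ATP8 (3957_r_at), against 5.01 to 8.38. The same array read 3.28 for VAR1 (3980_r_at), against 0.0268 to 0.515.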

How the results depend on the processing

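Of the 9 mitochondrial mRNA probe sets called lower, 7 kept direction and call under every alternative in which they were tested, the exceptions being COX1 4007_at and ATP8 3957_r_at. The count of 9 was 4 with the filter on dim probe sets, by construction, as 4 of the 14 remain, and lay between 7 and 10 with 1 pair left out. With the higher offset or quantile normalization it was 8, after median centring 10. No member was higher in limma under any of these settings. The replicate block moved no member count (without it, 9 lower), though it changed the calls of COX2 and ATP8 3957_r_at given above. The median ratio of -1.08 was -2.05 without an offset, -0.59 with the higher one and -2.30 with the filter, and -1.21 to -0.98 with 1 pair left out. VAR1 3980_r_at, near background, changed sign without an offset (1.17) and with 1 pair left out ranged from -0.18 to 0.12, above 0 without replicate 2. Over all probe sets, 1249 were lower and 1642 higher, 1759 and 1310 after median centring, 1460 and 1437 after quantile normalization. With 1 pair left out these counts lay between 775 and 953 and between 1076 and 1384, the lowest of both without replicate 4. Signal over background limits the rest: 11 of the 14 members had an Upf1p-TAP mean under the 25th percentile. In 7 of the 14 the mock mean was under it too. Among these 7 were COX1 4007_at (mock mean 14.4) and ATP8 3957_r_at (mock mean 12.1), both called lower.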

Other observations

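Over all 9275 probe sets, 4 had every mock array above the median of all values (66.6) and every Upf1p-TAP array below the 25th percentile (15.97), limits chosen after the data were seen. None of the 4 has a gene in the platform annotation, and none is a member. Their numbers are consecutive, 3951_at to 3954_at. Probe set 3953_at read 769 ± 114 in the mock and 3.26 ± 3.46 with Upf1p-TAP (SD, n = 4), and 3954_at read 486 ± 145 and 2.97 ± 2.65. The values of 3952_at were 300 ± 61.2 and 2.08 ± 1.41, and those of 3951_at 287 ± 25.0 and 3.07 ± 1.18. How this loss bears on the ratios of the members was not tested. The sources used here do not say what they detect.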
